A study of Mus musculus with 8 samples.

Results

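The genes described are the 9 leukocyte adhesion genes Itgam, Itgal, Itgax, Itga4, Itgb2, Itgb7, Cd44, Selplg and Spn, which encode integrin chains and other surface molecules with which leukocytes enter tissue such as the injured kidney. They were taken by symbol from a single-cell gene table of 57010 genes, and all 9 were found. The choice by symbol uses no measured value, but it was made with earlier results of these data known. The cells came from kidneys of male C57BL/6 mice, sorted live by dye exclusion and scatter to enrich leukocytes. There were 7 conditions, each a pool of 3 mice. The control pool came from mice with untouched kidneys. The vehicle pools came from mice given DMSO and left-sided unilateral ischemia-reperfusion injury (IRI), with the other kidney left in place, and were collected at days 1, 7 and 14. The deposited name of these pools says IRI alone, and the vehicle comes from the study's methods. The entospletinib pools, also at days 1, 7 and 14, had the same injury and the SYK inhibitor entospletinib at 20 mg/kg by intraperitoneal injection, first given 30 min before the injury. Mice kept past day 1 had further injections, at first daily and then on alternate days. Besides leukocytes, the sorted cells held endothelial-like and tubule-like cells. Each condition is therefore 1 pool, and mouse-to-mouse spread was not measured in any of them.

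Integrins are paired surface receptors of an alpha and a beta chain that switch from a bent to an extended, binding form when the cell is stimulated. The beta chain Itgb2 (CD18) pairs with Itgal to form LFA-1, with Itgam (CD11b) to form Mac-1 and with Itgax (CD11c), and these pairs bind ICAM molecules on the vessel wall. Mac-1 also binds complement fragments. Itga4 pairs with Itgb1 to bind Vcam1, or with Itgb7 to bind Madcam1 on vessels of the gut. Before integrins arrest a cell, selectins slow it: Selplg (PSGL-1) is the main leukocyte ligand of P-selectin, and Cd44, the hyaluronan receptor, can also carry selectin ligands. Spn (CD43) is a large, heavily glycosylated sialomucin that has both adhesive and anti-adhesive roles. SYK is a tyrosine kinase that acts downstream of integrins and Fc receptors.

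In the GRCm38 annotation, Itgal (ENSMUSG00000030830) at chr7:127296260-127335138 on the plus strand, Itgam (ENSMUSG00000030786) at chr7:128062640-128118491 on the plus strand, Itgax (ENSMUSG00000030789) at chr7:128129547-128150657 on the plus strand and Spn (ENSMUSG00000051457) at chr7:127132232-127137823 on the minus strand lie on one chromosome, and Itgam and Itgax are close neighbours in the same orientation. The others are Itga4 (ENSMUSG00000027009) at chr2:79255426-79333123 on the plus strand, Cd44 (ENSMUSG00000005087) at chr2:102811141-102901665 on the minus strand, Itgb2 (ENSMUSG00000000290) at chr10:77530252-77565708 on the plus strand, Itgb7 (ENSMUSG00000001281) at chr15:102215995-102231944 on the minus strand and Selplg (ENSMUSG00000048163) at chr5:113818536-113832644 on the minus strand. Values below are counts summed over each whole gene. RefSeq promoter sequence (GRCm38.p6, 250 bases before the start, read 5′ to 3′ on the gene's strand) was matched for 6 of the 9 genes, and 3 are printed because the comparisons below turn on them: Itgam (chr7:128062390-128062639, plus strand), Cd44 (chr2:102901666-102901915, minus strand) and Spn (chr7:127137824-127138073, minus strand). Capitals mark GAGGAA, a core that myeloid ETS factors such as PU.1 can bind, or its reverse complement TTCCTC.
Itgam: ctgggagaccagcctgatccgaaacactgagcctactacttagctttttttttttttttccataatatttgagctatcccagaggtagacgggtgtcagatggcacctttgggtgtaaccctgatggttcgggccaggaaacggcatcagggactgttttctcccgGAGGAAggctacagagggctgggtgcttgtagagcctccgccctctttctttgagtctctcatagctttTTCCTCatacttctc
Cd44: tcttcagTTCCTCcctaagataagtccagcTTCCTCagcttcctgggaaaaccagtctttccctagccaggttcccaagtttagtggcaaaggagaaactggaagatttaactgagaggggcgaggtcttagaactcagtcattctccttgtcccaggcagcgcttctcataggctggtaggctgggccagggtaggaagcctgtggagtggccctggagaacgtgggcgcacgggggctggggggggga
Spn: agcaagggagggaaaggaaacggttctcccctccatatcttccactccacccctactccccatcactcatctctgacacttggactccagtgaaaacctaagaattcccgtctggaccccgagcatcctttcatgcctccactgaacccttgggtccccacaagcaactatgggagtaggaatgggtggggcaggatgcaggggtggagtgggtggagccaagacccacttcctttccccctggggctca
The letters occurred 2 times in the Itgam window, 84 and 15 bases before the start, and 2 times in the Cd44 window, 243 and 220 bases before it. They were in 2 of the 6 member promoters and in 23.3% of the 32851 promoters of the same length, counted on both strands. The runt-type letters TGTGGT (or ACCACA), which do not overlap that motif, were in the Itga4 window alone, 60 bases before the start, and in 14.0% of all promoters. These matches are a description of letters and say nothing of binding in these cells.

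The deposited tables held 120281 barcodes, of which 79389 (66.0%) passed the limits, with 238942003 counts in all. Median counts per cell were between 2071.5 and 2930 in 6 pools and 960 in the entospletinib pool at day 14. The 8 sublibraries divide one set of barcoded cells, which makes the SD over them technical. Before the limits, 28653 of the 120281 entries carried a barcode that also occurred in another sublibrary. The limit on ribosomal protein genes removed between 4.23% and 8.53% of control and vehicle cells and 29.0%, 12.1% and 24.0% of entospletinib cells at days 1, 7 and 14. Cells were clustered and named from marker genes as macrophage-like, monocyte-like and so on, which gave 15 classes of at least 200 cells and 3401 cells left unnamed. Doublet simulation called 9.75% of cells, which were kept in the main values. Levels are CPM, a gene's counts scaled to the same total in each class and pool, and are compared between classes and pools but not between genes. Intervals cover counting error only. In a sorted sample, fewer cells of a type and less RNA per cell of that type cannot be told apart in an all-cell level.

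The β2 chain and its partners differed in the order of their levels over the leukocyte classes. Itgb2 was broad: its mean over pools, weighting pools equally, was 328 ± 65.7 CPM (SD, n = 7 pools) in monocyte-like cells, 304 ± 95.7 CPM (n = 6) in neutrophil-like cells and 269 ± 49.8 CPM in natural killer-like cells, and the ranges of these neighbours overlapped. Itgam was at 1113 ± 317 CPM in neutrophil-like, 701 ± 229 CPM in monocyte-like, 572 ± 147 CPM in type 2 conventional dendritic-like and 411 ± 171 CPM in macrophage-like cells. Itgal had another order, led by natural killer-like cells at 546 ± 74.6 CPM, then neutrophil-like cells at 479 ± 259, monocyte-like cells at 415 ± 159 and T-cell-like cells at 396 ± 77.0 CPM. These 4 classes overlapped pool by pool, and the first gap in the order beyond 2 SD was that between plasmacytoid (249 ± 39.9 CPM) and type 1 conventional dendritic-like cells (117 ± 27.9 CPM). Itgax was highest in type 2 conventional dendritic-like cells, at 339 ± 74.1 CPM, followed by macrophage-like cells at 164 ± 92.1 CPM and type 1 conventional dendritic-like cells at 158 ± 57.4 CPM. Macrophage-like cells, which bear this dendritic-cell marker at a level their type 1 dendritic-like neighbours overlapped, held 59.9% of all Itgax counts in the control pool.

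Of the α4 and β7 chains, Itga4 was highest in dendritic-like cells that express Ccr7, at 1454 ± 280.3 CPM (SD, n = 3 pools of at least 50 cells), above natural killer-like cells at 744 ± 218 CPM by more than 2 SD and with no overlap of pools. Monocyte-like cells followed at 712 ± 252 CPM and T-cell-like cells at 646 ± 163 CPM. Itgb7, the gut-homing partner, was at 172 ± 26.4 CPM in type 1 conventional dendritic-like, 139.5 ± 23.8 CPM in T-cell-like and 115 ± 24.0 CPM in natural killer-like cells. It was at 9.31 ± 2.75 CPM in macrophage-like and 7.87 ± 3.29 CPM in neutrophil-like cells, close to the 6.46 ± 3.396 CPM of proximal tubule-like cells.

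The rolling molecules had other orders again. Cd44 stood at 3213 ± 648 CPM in neutrophil-like and 1736 ± 464 CPM in monocyte-like cells, and the latter did not overlap the next class, plasmacytoid dendritic-like cells at 758 ± 195 CPM. Selplg was highest in plasmacytoid dendritic-like cells at 449 ± 96.5 CPM, then neutrophil-like at 335 ± 171 and Ccr7 dendritic-like cells at 322 ± 128 CPM. Monocyte-like cells were at 74.4 ± 15.6 CPM. Spn had yet another order, with natural killer-like cells at 261 ± 95.7, T-cell-like cells at 148 ± 33.7 and monocyte-like cells at 136 ± 72.7 CPM, and with neutrophil-like cells at 11.9 ± 10.1 CPM. Spn in neutrophil-like cells was thus at the level of proximal tubule-like cells, 12.0 ± 8.25 CPM, while Spn in macrophage-like cells was at 98.2 ± 57.2 CPM.

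**Figure D1:**
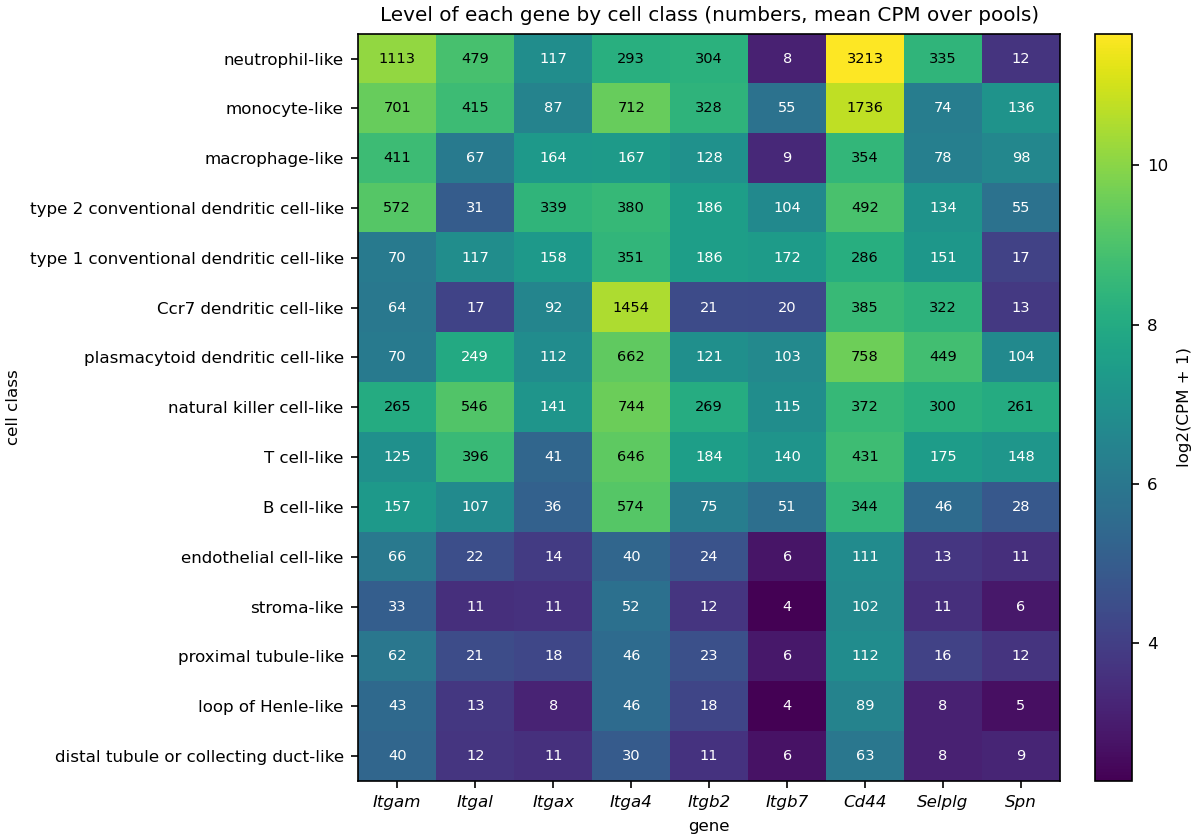
Mean level of each of the 9 genes in each class (printed as CPM, coloured by log2 of CPM + 1), with pools weighted equally. Cd44 and Itgam are highest in neutrophil-like cells, Spn and Itgal in natural killer-like cells and Itga4 in Ccr7 dendritic-like cells.

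Kidney tubule cells, which should lack the leukocyte integrins and Spn, gave the background (injured tubule cells can make Cd44). Cells with at least 500 counts were thinned to 500 each, and shallower cells were left out of the shares. A count of Itgam was then found in 45.6% (44.8 to 46.5%) of neutrophil-like cells (95% exact interval) and in 1.82% (1.33 to 2.44%) of proximal tubule-like cells. For Cd44 the shares were 69.3% (68.5 to 70.1%) and 2.94% (2.30 to 3.69%). For Spn they were 12.5% (10.5 to 14.7%) in natural killer-like and 0.414% (0.198 to 0.759%) in proximal tubule-like cells. The median counts per cell before thinning were 1350.0 in neutrophil-like and 2548 in proximal tubule-like cells. The proximal tubule-like level of Cd44 was 112 ± 76.4 CPM over the pools. Without called doublets, 58 of the 135 levels (9 genes in 15 classes, pools summed) moved by more than the SD over sublibraries. Itgam in T-cell-like cells was at 130.1 CPM with them and 26.3 CPM without, Cd44 in proximal tubule-like cells at 82.6 and 42.6 CPM, and Itgam in neutrophil-like cells at 1415 and 1427 CPM. With classes from each cell's own markers 24 levels moved, and with no ribosomal limit 24.

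Across the 15 classes, each gene was set against 7410 others by Pearson's r of log2 CPM. These correlations describe classes that share libraries, and carry no test. The genes most like Itgam were Lilrb4b, Lilrb4a and Gm49339 (r from 0.95 to 0.955), those most like Itgb2 were Myo1f, Pstpip1 and Bin2 (r from 0.966 to 0.967), and those most like Itgal were Sirt7, Bin2 and Rac2 (r from 0.903 to 0.925). Itgax was most like Otulinl, Laptm5 and Aim2 (r from 0.903 to 0.927), and Itga4 most like Stk4, Kif21b and Psd4 (r from 0.939 to 0.97). The nearest to Itgb7 were Sub1, Macroh2a1 and Map4k1 (r from 0.897 to 0.917), to Cd44 Ptpn1, Ccnl1 and Rtf2 (r from 0.938 to 0.945), to Selplg Mob3a, Mir142hg and Ccdc88b (r from 0.922 to 0.933) and to Spn Abcb1b, Ern1 and Kcnab2 (r from 0.899 to 0.928). Among the members themselves, Itgb2 was closest to Itgal (r = 0.89) and Cd44 to Itgam (r = 0.857), whereas Itgb7 and Itgam had r = 0.269.

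The classes that supplied each gene's counts differed between pools. In the control pool, macrophage-like cells gave 40.1% of Itgam counts and neutrophil-like cells 1.66%. At day 1 in the vehicle pool the shares were 6.28% from macrophage-like, 32.5% from neutrophil-like and 54.4% from monocyte-like cells, and at day 14 macrophage-like cells again gave 56.8%. For Selplg, neutrophil-like cells went from 1.23% of counts in the control to 58.1% at day 1 and 6.30% at day 14. Entospletinib pools had fewer counts from neutrophil-like cells at day 7: 10.1% of Cd44 counts against 32.8% with vehicle, and 3.55% against 26.4% of Itgam counts. Of the counts of all genes, neutrophil-like cells held 0.227%, 19.1%, 12.1% and 3.99% in the control pool and the vehicle pools of days 1, 7 and 14, and 0.880% in the entospletinib pool of day 7. Macrophage-like cells held 32.2%, 12.1% and 43.7% in the control pool and the vehicle pools of days 1 and 14, and monocyte-like cells 46.1% at day 1.

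Macrophage-like cells of the injured kidney carried more Itgam than those of the control kidney at every day. Itgam stood at 146 ± 12.6 CPM in the control pool, 478 ± 25.4, 406 ± 29.0 and 519 ± 19.96 CPM in the vehicle pools at days 1, 7 and 14, and 680.2 ± 61.3, 343 ± 23.2 and 301 ± 35.4 CPM in the entospletinib pools (SD, n = 8 sublibraries). All 6 injury pools were above the control. For each class, ratios are given as the log2 ratio of CPM less the median of that ratio over the genes tested, those whose mean over both pools reached 50 CPM in the class, and a gene is called past 2-fold beyond 1 either way. The median gene is therefore at 0. A gene under 50 CPM in 1 of the pools is tested only where the other pool is higher, so the counts of genes past 2-fold lean towards such genes. Member counts in brackets below leave such members out. The shares of all genes beside them still include such genes, so those counts have no matching share. With 1 pool a group there is no test of a single day. The vehicle over control ratio of Itgam was 1.56 (95% counting interval 1.48 to 1.64) at day 1, 1.80 (95% counting interval 1.72 to 1.88) at day 7 and 1.92 (95% counting interval 1.85 to 2.00) at day 14. It was also higher within each of the large macrophage-like clusters, by 1.27, 1.63 and 1.98 in cluster 0 (which led in the control pool) and by 1.54, 1.52 and 1.90 in cluster 3 (led by Cx3cr1 and C1qa), in which 0.146% of cells were called doublets. Neutrophil markers in the whole class summed to 175 CPM in the control and 669.7, 340.1 and 403 CPM in the vehicle pools, and without called doublets the Itgam ratios were 1.46, 1.71 and 1.93. The vehicle comparisons share the control pool and so are not independent of each other.

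Spn was lower in these cells in the vehicle pools of days 7 and 14 than in the control. Its level was 128 ± 11.2 CPM in the control pool, 110.2 ± 12.3, 32.9 ± 7.46 and 44.1 ± 1.84 CPM in the vehicle pools at days 1, 7 and 14, and 203 ± 22.5, 84.3 ± 11.1 and 85.0 ± 17.3 CPM in the entospletinib pools, and its vehicle over control ratios were -0.37, -1.63 and -1.44, with the vehicle pools of days 7 and 14 the lowest of all. The integrin chain Itga4 was low in the vehicle pool of day 1, at 79.8 CPM against 192 CPM in the control, a ratio of -1.42, and was 0.16 and 0.45 at days 7 and 14. At day 1, 51.8% of vehicle macrophage-like cells lay in cluster 11 (led by Ch25h, Plau and Mmp12), against 1.87% in the control. The other members of the β2 family were nearer the centre: Itgb2 was at 0.32, 0.19 and -0.16, Itgal at 0.46, -0.65 and -0.79 and Itgax at 0.68, -0.58 and -0.69. At day 1, Itgam was past 2-fold higher and Itga4 was past 2-fold lower, 2 of 8 members tested, with a median of 0.39 over the members, against 12.6% of 3528 genes past 2-fold either way. At day 7, Itgam and Cd44 were past 2-fold higher and Spn was past 2-fold lower, 3 of 8 members tested (2 of 6 without the members under 50 CPM in 1 of the pools, such as Spn, whose direction the filter fixed), with a median of 0.044 over the members, against 6.14% of 3143 genes past 2-fold either way. At day 14, Itgam was past 2-fold higher and Spn was past 2-fold lower, 2 of 8 members tested (1 of 6 without the members under 50 CPM in 1 of the pools, such as Spn, whose direction the filter fixed), with a median of -0.16 over the members, against 5.45% of 3286 genes past 2-fold either way.

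Cd44 in macrophage-like cells stood at 242 ± 22.8 CPM in the control pool, 507 ± 75.5, 632 ± 142 and 362 ± 22.1 CPM in the vehicle pools at days 1, 7 and 14, and 278 ± 42.6, 259 ± 26.8 and 196 ± 31.8 CPM in the entospletinib pools. The vehicle pools were all above the control, with ratios of 0.92, 1.72 and 0.68. Without called doublets these were 0.58, 1.40 and 0.47. Inside cluster 0 they were 0.28, 0.040 and -0.17, and inside cluster 3 0.47, 0.34 and -0.19, all short of 2-fold. Cluster 10 (led by Arl5c, Fosb and Cd83), with 919 CPM of Cd44 against 208 and 228 CPM in clusters 0 and 3, held 1.87% of control and 25.9% of day 7 vehicle macrophage-like cells, and 34.3% of its cells were called doublets. Neutrophil markers (8 of 8 detected) summed to 175 CPM in control macrophage-like cells, 669.7, 340.1 and 403 CPM in the vehicle pools and 439, 193 and 203 CPM in the entospletinib pools. At each day they were, like Cd44, higher with vehicle than with entospletinib, and their part in the Cd44 values was not tested.

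In monocyte-like cells, Itga4 and Spn were lower and Itgam higher in the vehicle pools of days 1 and 7 than in the control, and Itgal was past 2-fold lower at day 7. Itgal stood at 553 CPM in the control pool, 356, 103 and 376 CPM in the vehicle pools at days 1, 7 and 14, and 540.3, 439 and 536 CPM in the entospletinib pools, so the vehicle pool of day 7 was the lowest by far. Its vehicle over control ratios were -0.81, -2.15 and -0.50. Itga4 was at 1091 CPM in the control pool, 608, 253 and 748 CPM in the vehicle pools at days 1, 7 and 14, and 702, 833 and 748 CPM in the entospletinib pools, with ratios of -1.02, -1.84 and -0.49. Spn was at 176 ± 53.5 CPM in the control pool, 75.1 ± 5.95, 28.5 ± 13.1 and 100.1 ± 23.5 CPM in the vehicle pools at days 1, 7 and 14, and 177 ± 20.2, 149 ± 31.7 and 244 ± 64.5 CPM in the entospletinib pools, with ratios of -1.41, -2.36 and -0.76. Here too the day 7 vehicle pool was lowest. Itgam, at 417 CPM in the control pool, 1090.4, 699 and 511 CPM in the vehicle pools at days 1, 7 and 14, and 899.8, 616 and 671 CPM in the entospletinib pools, had ratios of 1.21, 1.01 and 0.35, and Cd44 had ratios of 0.54, 0.91 and 0.15. Selplg, the P-selectin ligand, lay between -0.32 and 0.27. At day 1, Itgam was past 2-fold higher and Itga4 and Spn were past 2-fold lower, 3 of 9 members tested, with a median of -0.035 over the members, against 9.41% of 3231 genes past 2-fold either way. At day 7, Itgam was past 2-fold higher and Itgal, Itga4 and Spn were past 2-fold lower, 4 of 8 members tested (3 of 6 without the members under 50 CPM in 1 of the pools, such as Spn, whose direction the filter fixed), with a median of -0.33 over the members, against 16.4% of 2953 genes past 2-fold either way. At day 14, no member of the 9 tested was past 2-fold, with a median of -0.066 over the members, against 2.06% of 3061 genes past 2-fold either way.

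The monocyte-like class held a pair of clusters that differ in these genes. Cluster 6, led by Ace, Cd300e, Adgre4 and Treml4, had 1090.4 CPM of Itga4, 756 CPM of Itgal and 228 CPM of Spn. Cluster 4, led by Vcan and F13a1, had 408, 203 and 33.7 CPM of the same genes but 1089 CPM of Itgam and 2535 CPM of Cd44, against 751 and 1347 CPM in cluster 6. The clusters were made from 4000 variable genes of these cells, so these differences describe the clusters and are not tested. Cluster 6 made up 80.6% of monocyte-like cells in the control, 29.6%, 20% and 61.0% in the vehicle pools and 59.4%, 69.6% and 77.6% in the entospletinib pools. Inside cluster 6, Itgal and Itga4 differed little from the control: the vehicle ratios of Itgal were 0.15, -0.19 and -0.12 and those of Itga4 -0.16, -0.11 and -0.12. Inside cluster 4 they were -0.65, -2.84 and -1.11 for Itgal and -1.34, -2.59 and -1.21 for Itga4, from a control pool with 66 cells of that cluster.

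**Figure D2:**
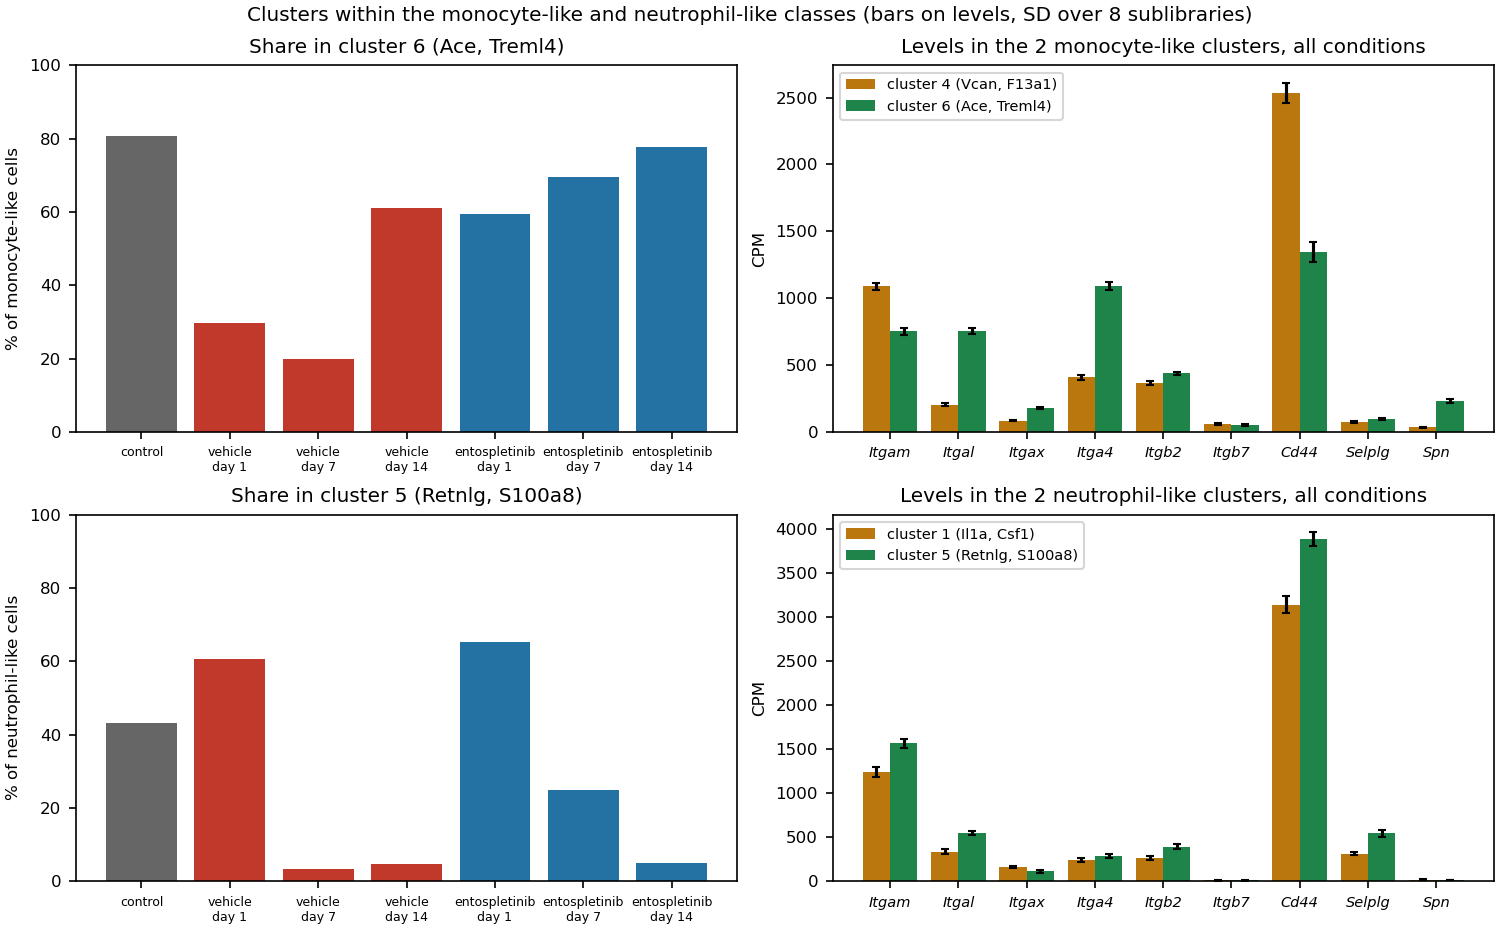
Levels of the genes (CPM) in the monocyte-like and neutrophil-like clusters, with the SD over 8 sublibraries as bars, beside the share of each class in cluster 6 or cluster 5 in each pool (percent of cells). Cluster 6 has the higher Itga4, Itgal and Spn of the monocyte-like pair and makes up 20% of monocyte-like cells in the vehicle pool of day 7 and 69.6% in the entospletinib pool of that day.

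Neutrophil-like cells of the control kidney were few, 65 in all, so the ratios against them carry wide counting intervals. Itgal stood at 849 CPM in the control pool, 503, 133 and 240.3 CPM in the vehicle pools at days 1, 7 and 14, and 618, 533 and 631 CPM in the entospletinib pools, the last of these from 41 cells. The vehicle over control ratio was -0.87 (95% counting interval -1.20 to -0.52) at day 1, -2.61 (95% counting interval -2.98 to -2.23) at day 7 and -1.98 (95% counting interval -2.34 to -1.60) at day 14, so the later vehicle pools lay lowest. Itga4 had ratios of -0.90, -2.07 and -0.84 and Selplg of 0.35, -1.22 and -1.33, from levels of 372 CPM in control cells and 512, 153 and 165 CPM in the vehicle pools. The common chain Itgb2 had ratios of -0.21, -1.06 and -0.93, and Itgam of 0.76, 0.27 and -0.14. Spn was at 0 counts in control neutrophil-like cells and at 17.0, 6.87 and 8.03 CPM with vehicle, all under the control pool's floor of 34.9 CPM (3 counts). At day 1, no member of the 7 tested was past 2-fold, with a median of 0.11 over the members, against 22.1% of 2550 genes past 2-fold either way. At day 7, Itgal, Itga4, Itgb2 and Selplg were past 2-fold lower, 4 of 7 members tested, with a median of -1.06 over the members, against 33.2% of 2603 genes past 2-fold either way. At day 14, Itgal and Selplg were past 2-fold lower, 2 of 7 members tested, with a median of -0.84 over the members, against 29.7% of 2717 genes past 2-fold either way. The day 7 and day 14 pools were mostly of cluster 1 (led by Il1a, Csf1 and Mmp9): cluster 5, led by Retnlg, S100a9 and S100a8, was 43.1% of the control, 60.7% at day 1, 3.34% at day 7 and 4.71% at day 14. Levels in cluster 5 against cluster 1 were 549 and 334 CPM for Itgal and 544 and 312 CPM for Selplg.

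In T-cell-like cells, Itgal, whose LFA-1 pair serves T cell adhesion, had vehicle over control ratios of -0.41, -0.49 and -0.70, Itga4 of 0.42, 0.12 and 0.44 and Itgb7 of -0.44, -0.44 and -0.53. At day 1, Itgam was past 2-fold higher, 1 of 8 members tested, with a median of 0.19 over the members, against 3.81% of 3568 genes past 2-fold either way. At day 7, Itgam was past 2-fold higher, 1 of 8 members tested, with a median of 0.089 over the members, against 4.58% of 3186 genes past 2-fold either way. At day 14, Itgam was past 2-fold higher, 1 of 8 members tested, with a median of 0.093 over the members, against 3.8% of 3338 genes past 2-fold either way. The member past 2-fold was Itgam at each day, a myeloid gene, at 65.0 CPM in control cells and 195, 145 and 159 CPM in the vehicle pools, while neutrophil markers in the same cells summed to 134 and 764, 385 and 451 CPM. Without called doublets its ratios were -0.056, 0.94 and 0.74, and with no ribosomal limit 0.24, -0.077 and 0.91, all inside 2-fold. In endothelial-like cells Itgam was at 20.2 CPM in control cells and 93.6, 108 and 91.7 CPM with vehicle, with neutrophil markers summing to 67.7 and 565, 344 and 290.1 CPM.

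The comparison of entospletinib with vehicle at the same day asks whether these genes differ in injured kidneys when SYK is inhibited. Over the 3 days, macrophage-like cells had less Cd44 and more Spn with entospletinib. Cd44 was lower in the entospletinib pool at 3 of 3 days, with ratios of -0.76, -1.64 and -0.96, and the pools of the arms did not overlap (362 to 632 CPM with vehicle, 196 to 278 CPM with entospletinib). edgeR's quasi-likelihood test across the 6 injury pools, with day as a factor and Benjamini-Hochberg adjustment over 13641 genes, gave a log2 fold change of -1.17 ± 0.158 (SE) and an adjusted p of 0.00342. Spn was higher at 3 of 3 days, by 1.00, 1.01 and 0.87, with 0.90 ± 0.110 and an adjusted p of 0.00213 in the same edgeR fit. At days 7 and 14 Spn was under 50 CPM with vehicle, so those ratios could enter in that direction only, while edgeR filtered genes over the 6 pools together. Its arms overlapped, since day 1 stood above the later days in both. In all, 2 of the 9 members passed, 1 in each direction, against 2.99% of genes, 70 higher and 338 lower.

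The Spn difference was also seen inside clusters, at 1.07, 0.79 and 0.55 in cluster 0 and 1.77, 0.80 and 1.08 in cluster 3. The Cd44 difference was smaller there, at -0.32, -0.33 and -0.54 in cluster 0 and -0.46, -0.77 and -0.47 in cluster 3, while cluster 10 was 25.9% of the class with vehicle and 6.45% with entospletinib at day 7. Doublets made up 12.8%, 20.6% and 14.3% of vehicle and 2.22%, 11.6% and 0.350% of entospletinib macrophage-like cells. Without them, edgeR gave Cd44 -0.97 ± 0.180 and an adjusted p of 0.0409, and without day 14, the shallow pool's day, -1.23 ± 0.217 and 0.0668. With no day term neither Cd44 (adjusted p = 0.659) nor Spn (adjusted p = 0.945) passed in edgeR. In endothelial-like cells, which hold little Cd44, the level was 201, 229 and 105 CPM in the vehicle pools and 113, 47.4 and 49.9 CPM in the entospletinib pools. Both values of day 14 and the entospletinib value of day 7 are under the proximal tubule-like mean of 112 CPM, and no difference is read from those days. Without called doublets the endothelial-like ratios were -0.18, 0.14 and 0.15, and the part of such counts in the macrophage-like values was not tested.

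Itgam in macrophage-like cells did not keep one direction. Its log2 ratio was 0.62 with entospletinib at day 1, from 478 to 680.2 CPM, and -0.59 and -0.86 at days 7 and 14. Inside clusters it was 0.74, -0.49 and -1.07 in cluster 0 and 0.67, -0.31 and -0.91 in cluster 3, while cluster 3 was 7.72% of the class in the vehicle pool and 39.7% in the entospletinib pool of day 1, and 25.1% and 66.3% at day 14. In the edgeR fit over the days it did not pass (-0.33 ± 0.229, adjusted p = 0.527). With day 1 left out, edgeR gave -0.77 ± 0.144 with an adjusted p of 0.0177. The other 6 members also missed the threshold: Itgb7 had 0.60 ± 0.194 (edgeR adjusted p = 0.133) at a level close to the tubule's, and Itgal, Itgax, Itga4, Itgb2 and Selplg lay between -0.20 and 0.073. By single day, no member of the 8 tested was past 2-fold, with a median of 0.15 over the members, against 0.718% of 3620 genes past 2-fold either way at day 1. At day 7, Spn was past 2-fold higher and Cd44 was past 2-fold lower, 2 of 7 members tested (1 of 6 without the members under 50 CPM in 1 of the pools, such as Spn, whose direction the filter fixed), with a median of -0.14 over the members, against 3.05% of 3181 genes past 2-fold either way. At day 14, no member of the 7 tested was past 2-fold, with a median of -0.28 over the members, against 2.36% of 3351 genes past 2-fold either way. Spn at day 1, at 1.00, was just inside the 2-fold limit.

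**Figure D3:**
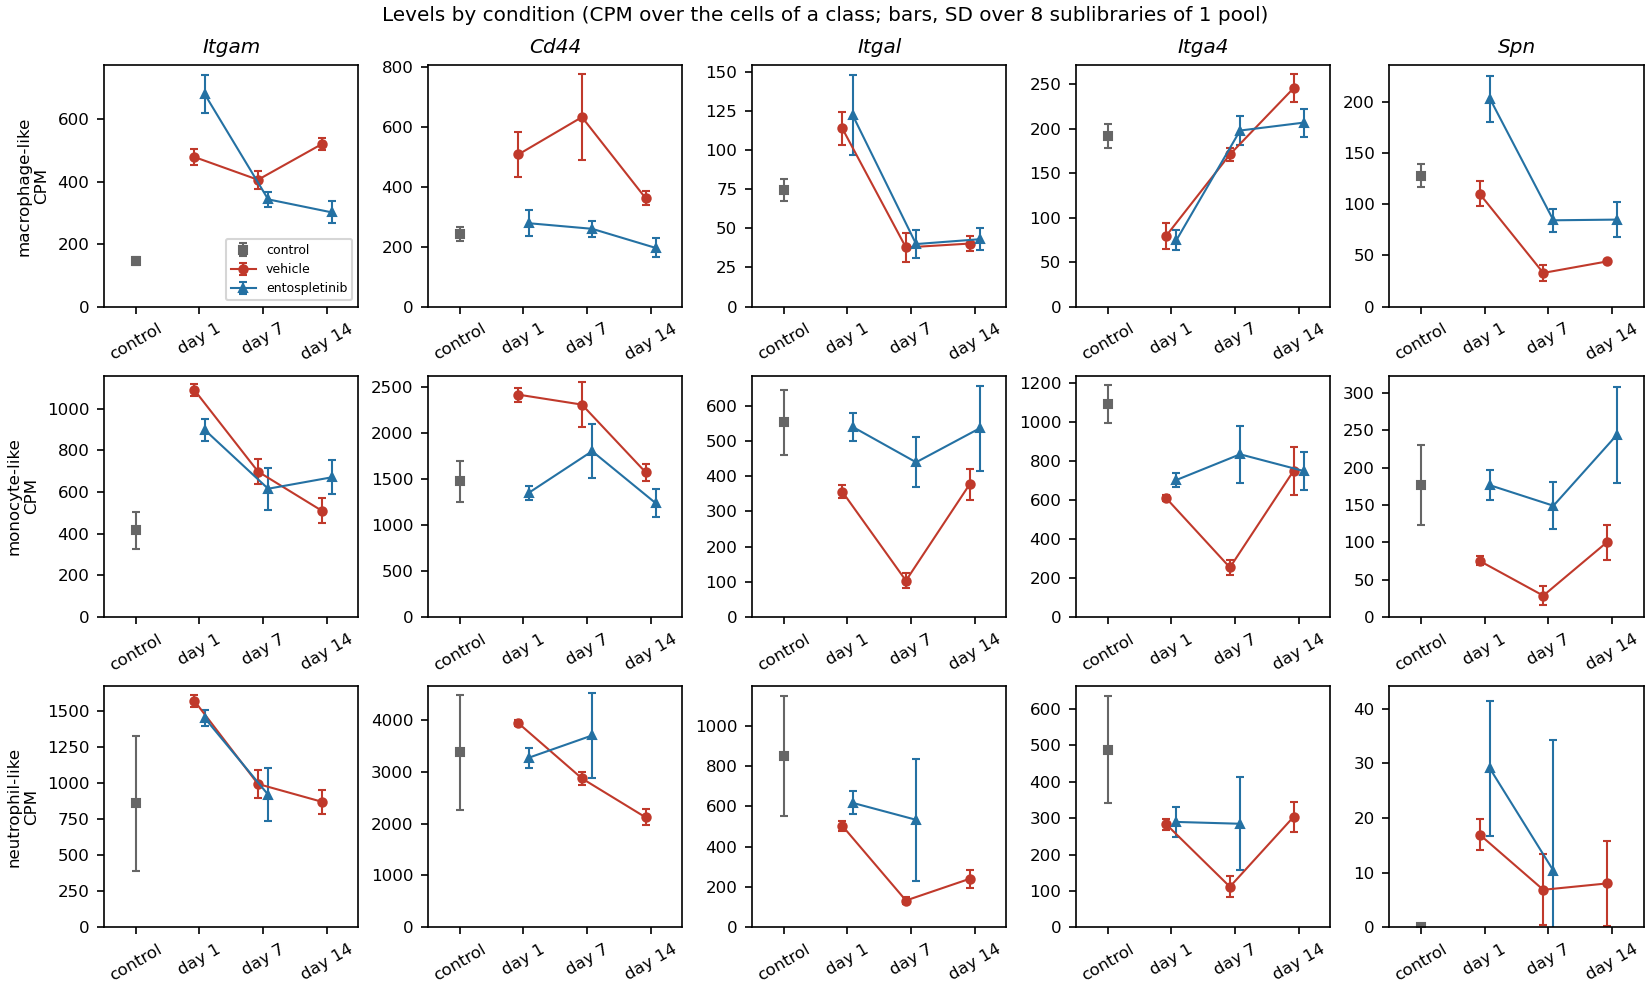
Level of Itgam, Cd44, Itgal, Itga4 and Spn (CPM, linear axes from 0) in macrophage-like, monocyte-like and neutrophil-like cells, with the control pool in grey, the vehicle pools in red and the entospletinib pools in blue, by day. Bars are the SD over 8 sublibraries. Pools with under 50 cells of a class are left out. The vehicle pool of day 7 is lowest for Itgal, Itga4 and Spn in monocyte-like cells.

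In monocyte-like cells the entospletinib pools lay closer to the control for Spn and, at day 7, for Itgal and Itga4. Spn was higher than with vehicle at 3 of 3 days, by 1.42, 2.01 and 1.24, and the arms did not overlap (28.5 to 100.1 CPM against 149 to 244 CPM). Itgal was higher by 0.79, 1.72 and 0.46. Itga4 had ratios of 0.40, 1.35 and -0.051 and Cd44 of -0.65, -0.73 and -0.40. At day 1, Spn was past 2-fold higher, 1 of 9 members tested, with a median of 0.21 over the members, against 1.43% of 3294 genes past 2-fold either way. At day 7, Itgal, Itga4 and Spn were past 2-fold higher, 3 of 8 members tested (2 of 6 without the members under 50 CPM in 1 of the pools, such as Spn, whose direction the filter fixed), with a median of 0.24 over the members, against 12.9% of 3054 genes past 2-fold either way. At day 14, Spn was past 2-fold higher, 1 of 9 members tested, with a median of 0.25 over the members, against 2.54% of 3110 genes past 2-fold either way. In the edgeR fit, 0% of the 9992 genes passed, with 1326 at an unadjusted p under 0.05 and 128 passing of the 4374 that DESeq2 tested. Spn had 1.5 ± 0.186 with an adjusted p of 0.0591 in edgeR, Itgal 0.95 ± 0.245 with 0.178 and Cd44 -0.62 ± 0.186 with 0.208. In DESeq2, with p-values adjusted over those 4374 genes, the adjusted p was 2.51e-06 for Spn, 0.029 for Itgal and 0.0337 for Cd44. In edgeR with no filter, all 3 passed (adjusted p = 1.69e-10 for Spn, 4.34e-04 for Itgal and 0.0393 for Cd44). Spn also passed in edgeR without called doublets (adjusted p = 0.0462) and without day 7 (adjusted p = 2.85e-04). Inside cluster 6, Spn was higher by 0.63, 0.56 and 0.99, whereas Itgal was at 0.24, -0.037 and 0.29 and Itga4 at -0.051, -0.14 and -0.22. Inside cluster 4 at day 7, Itgal was at 2.09 and Itga4 at 1.51.

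In neutrophil-like cells, Itgal and Itga4 were higher with entospletinib at day 7, by 1.90 (95% counting interval 1.57 to 2.22) and 1.25 (95% counting interval 0.80 to 1.67), from 117 entospletinib and 1708 vehicle cells. At day 1 the ratios were 0.40 and 0.13, and day 14 had too few entospletinib cells (41) for a ratio. At day 1, no member of the 7 tested was past 2-fold, with a median of 0.13 over the members, against 3.06% of 2618 genes past 2-fold either way. At day 7, Itgal and Itga4 were past 2-fold higher, 2 of 7 members tested, with a median of 0.47 over the members, against 17.7% of 2700 genes past 2-fold either way. Cluster 5 was 3.34% of neutrophil-like cells in the vehicle pool and 24.8% in the entospletinib pool of that day, and inside cluster 1 Itgal was at 1.58 and Itga4 at 1.12. In edgeR, which used all 6 pools, 0.408% of 9322 genes passed and none of the 9 members did, with Itgal nearest at 1.09 ± 0.320 and an adjusted p of 0.0929. Itgam, the chain that defines the class's Mac-1, had -0.16 ± 0.303, Itgb2 0.25 ± 0.329 and Cd44 -0.16 ± 0.305.

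T-cell-like cells had no member past the edgeR threshold, against 0.687% of 8149 genes. Spn was at 0.38 ± 0.172 (edgeR adjusted p = 0.428), Cd44 at -0.53 ± 0.150 (adjusted p = 0.152), Itgal at 0.090 ± 0.143 and Itgb7 at 0.19 ± 0.174. By day, no member of the 8 tested was past 2-fold, with a median of 0.065 over the members, against 3.85% of 3557 genes past 2-fold either way at day 1. At day 7, Itgam was past 2-fold lower, 1 of 8 members tested, with a median of -0.093 over the members, against 4.13% of 3271 genes past 2-fold either way. At day 14, Itgam was past 2-fold lower, 1 of 8 members tested, with a median of -0.090 over the members, against 4.97% of 3380 genes past 2-fold either way. The ratio of day 7 was -1.13 and 0.27 with no ribosomal limit, and that of day 14 was -1.21 and -0.12 without called doublets. At day 1 it was -0.044, and 1.17 without called doublets. Over the days edgeR gave Itgam -0.84 ± 0.221 with an adjusted p of 0.128, and it passed with no filter (adjusted p = 0.00364) and without day 1 (adjusted p = 0.00235). Without called doublets its edgeR adjusted p was 0.99.

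**Figure D4:**
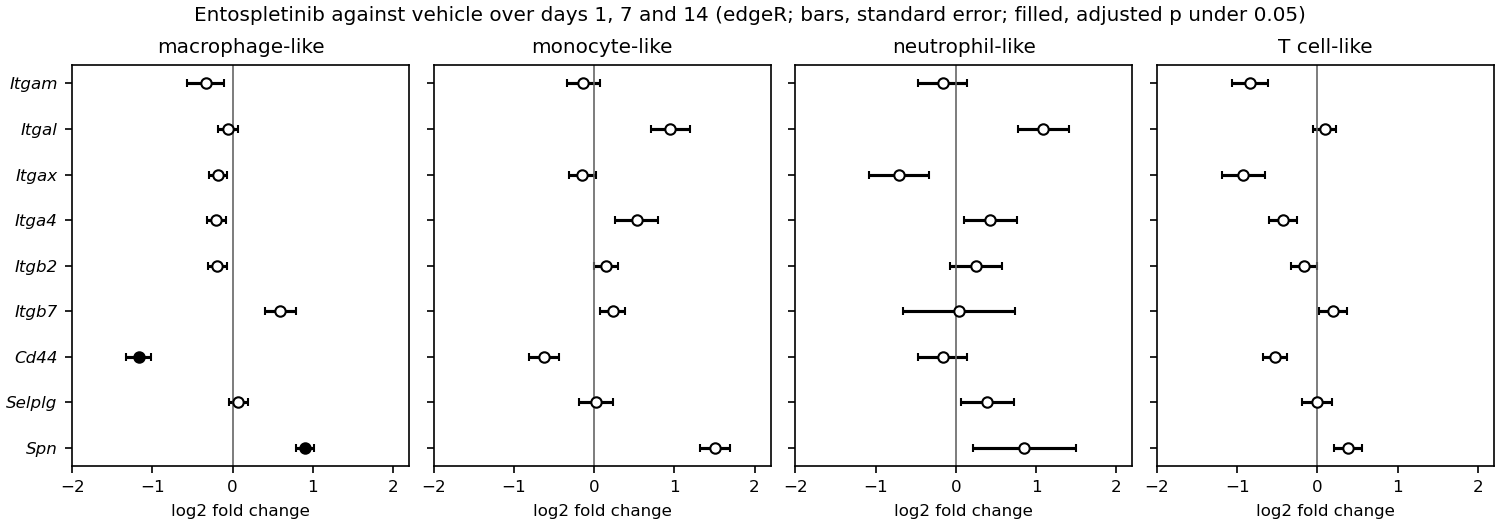
Log2 fold change of entospletinib against vehicle over the 3 days for each of the 9 genes in 4 classes, from the edgeR fit with day as a factor (points, with SE as bars), with filled points at an adjusted p under 0.05. Cd44 (-1.17) and Spn (0.90) in macrophage-like cells are the filled points.

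Over all sorted cells, Cd44 had entospletinib over vehicle ratios of -1.08, -2.01 and -1.13 at days 1, 7 and 14 and Itgam of -0.37, -1.29 and -1.05, both on the log2 scale relative to all genes. With the class mix held at that of the vehicle pool, the values for Cd44 were -0.47, -0.53 and -0.71, and those for Itgam 0.0037, -0.45 and -0.55. For both genes these were smaller in size than the all-cell values at each day, by an amount that varied with the weights, and the part of the class mix was not tested. With weights from the entospletinib pool Cd44 was -0.54, -1.01 and -0.80, and with single clusters in place of classes -0.34, -0.21 and -0.45. For Spn the all-cell values of 1.06, 0.65 and 0.61 became 1.17, 1.08 and 0.77, but with single clusters they were 0.80, 0.75 and 0.61, lower than the all-cell value at day 1. Those of Itgal went from 0.063, -0.27 and -0.034 to 0.59, 0.91 and 0.24, and to 0.52, 0.27 and 0.11 with weights from the entospletinib pool. Of the 27 values (9 genes at 3 days), 7 were past 2-fold over all cells, 2 with the class mix held, 0 with single clusters and 2 with weights from the entospletinib pool (Spn at day 1 and Cd44 at day 7). Of all genes tested, 2.66%, 12.7% and 8.15% were past 2-fold over all cells at days 1, 7 and 14, 0.656%, 2.68% and 1.04% with the class mix held, 0.487%, 1.58% and 0.931% with single clusters and 0.486%, 1.33% and 1.42% with weights from the entospletinib pool. The 2 with the class mix held were Spn at days 1 and 7, and at day 7 its level with the vehicle pool's mix was 29.1 CPM with vehicle, under the 50 CPM limit.

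**Figure D5:**
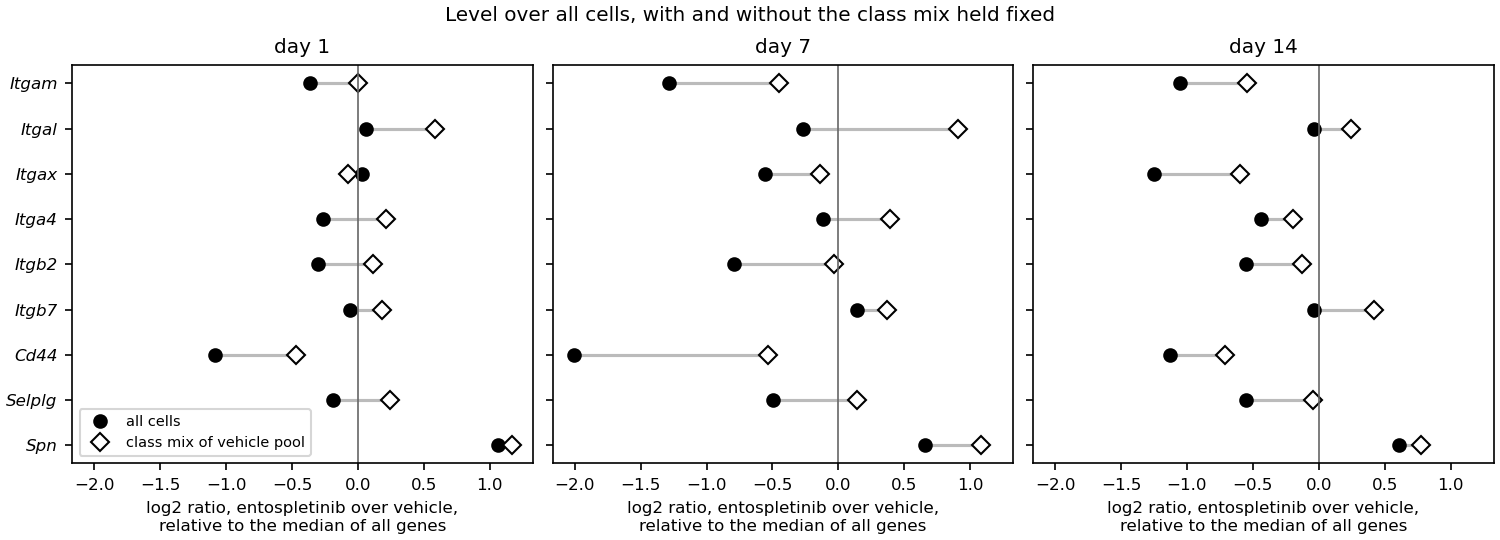
Entospletinib over vehicle ratio (log2, relative to all genes) over all cells and with the class mix held at the vehicle pool's, by gene and day, as filled circles and open diamonds. Holding the mix brings Cd44 at day 7 from -2.01 to -0.53 and takes Spn at that day from 0.65 to 1.08.

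A further 59 genes in 5 lists covered the partners of the 9. Of the 13 other integrin subunits, 3 were tested in neutrophil-like cells between vehicle and control, and Itga5 and Itgb1 among them were under 50 CPM in the control pool and entered through the vehicle pools, so their count is not read. Itga5, the fibronectin receptor chain, went from 11.6 CPM (1 control count) to 309.8 CPM at day 7, and Itgb1, its partner, from 46.5 to 216 CPM. Between entospletinib and vehicle at day 7, the ratios of Itga5 and Itgb1 were -1.92 and -1.17.

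Counter-receptors of the members were also read in neutrophil-like cells, where Icam1, the ligand of LFA-1 and Mac-1, was at 128 CPM in control cells and 294, 675 and 771 CPM with vehicle. With entospletinib it was at 106 and 269 CPM at days 1 and 7, and the edgeR fit gave -1.66 ± 0.331 with an adjusted p of 7.35e-04. B4galt1, a galactosyltransferase of selectin ligands, had -1.80 ± 0.400 with an adjusted p of 0.0044. These were the 2 of 40 list genes tested that passed in edgeR in neutrophil-like cells, against 0.408% of all genes. None of 47 passed in macrophage-like and none of 39 in monocyte-like cells, where 2.99% and 0% of all genes passed. At an unadjusted p under 0.05 these were 10 and 12, against 16.5% and 13.3% of all genes. In T-cell-like cells 1 of 41 passed (0.687% of all genes), the hyaluronan scavenger receptor Stab2, a gene of sinusoidal endothelium. The edgeR fit gave it 2.22 ± 0.392 with an adjusted p of 0.0242. Its level was 242 CPM in the control and, at day 1 alone, 30.5 CPM with vehicle and 386 CPM with entospletinib. Without called doublets, genes passing in T-cell-like cells fell from 56 to 2, and whether Stab2 was among them was not examined.

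In monocyte-like cells at day 7, 4 of 13 integrin activation genes tested were past 2-fold lower with vehicle than in the control (all genes tested: 6.87%), and 3 of 13 were past 2-fold higher with entospletinib than with vehicle (all: 5.04%). Rasgrp2 and Rassf5, in both counts, were under 50 CPM with vehicle and could be called in that direction only, so the counts are not read. Rasgrp2, the exchange factor that loads Rap1, was at 78.1 CPM in the control, 29.6 with vehicle and 110.3 CPM with entospletinib. The Rap1 effector Rassf5 was at 88.2, 32.3 and 88.4 CPM. Spp1 (osteopontin), a Cd44 and integrin ligand, went the other way, at 114 CPM in the control, 873 and 674 CPM in the vehicle pools of days 1 and 7 and 229.8 CPM in the entospletinib pool of day 7. Pecam1, used in crossing the vessel wall, was lower with vehicle at all 3 days, by ratios of -1.03, -1.56 and -1.14. The vehicle pools enter both comparisons with opposite sign, so a reversal between them is in part built in.

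In macrophage-like cells, 3 of 31, 1 of 30 and 1 of 31 list genes tested were past 2-fold between vehicle and control at days 1, 7 and 14, against 12.6%, 6.14% and 5.45% of all genes. They were Arhgap15 with a ratio of -1.47, Spp1 of 1.40 and Itga5 of 1.31 at day 1 with vehicle, and Vcam1 of -1.32 at day 7 and Icam1 of 1.32 at day 14. In endothelial-like cells, which display the counter-receptors, Vcam1, the ligand of the Itga4 and Itgb1 pair, was at 40.4 CPM in control cells and 115 CPM with vehicle at day 1. At day 14 it was at 76.7 CPM in the vehicle pool and 28.9 CPM in the entospletinib pool. Icam1 was at 69.5 CPM in control cells and 109, 102 and 77.7 CPM with vehicle, inside 2-fold at each day. Over the 12 counter-receptors, 1 of 9 tested lay past 2-fold higher and 0 lower at day 1 against 3.3% of all genes either way, 0 of 8 tested lay past 2-fold higher and 0 lower at day 7 against 2.93%, and 1 of 9 tested lay past 2-fold higher and 0 lower at day 14 against 4.87%. Between entospletinib and vehicle, 0 of 10 tested lay past 2-fold higher and 0 lower at day 1 against 0.526%, 0 of 8 tested lay past 2-fold higher and 0 lower at day 7 against 3.02%, and 1 of 9 tested lay past 2-fold higher and 1 lower at day 14 against 6.68%. Vcam1, among those called at day 1 with vehicle and at day 14 with entospletinib, was under 50 CPM in 1 of the pools each time, so these counts are not read.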

How the data were processed

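Leukocyte-enriched kidney cells were profiled by split-pool combinatorial barcoding (Parse Evercode), 7 conditions together in 8 sublibraries. The authors deposited raw counts per gene and cell, made with Parse's pipeline on mm10. The annotation release is not given in the sources used here. No sample label gives a condition, because every sublibrary holds all of them. Conditions came from the deposited cell table. Cells with more than 300 genes, under 20000 counts, under 25% mitochondrial and under 1.5% ribosomal counts were kept, limits taken from the study's methods. The ribosomal genes were 426 genes taken by name, and fewer cells were kept than the study's cell map held. Cells were clustered by Leiden (leidenalg 0.10.2, resolution 1, 40 components) into 30 clusters, and a cluster was called X-like when at least 3 fixed markers, more than of any other class, were among its 100 leading genes and its 10 leading genes held at most 1 marker of another class and no more of those than of its own. Counts were summed per class and pool. Ratios were taken where both pools held 50 cells or more, over genes averaging 50 CPM or more. The treatment test was edgeR 4.0.16 in R 4.3.3, with DESeq2 1.42.0 as an alternative. No replicate pools exist, so the 3 days stand in for them and p-values measure the spread of the treatment difference between days. Levels of each of the 9 members were taken in every class. Ratios are described for macrophage-like, monocyte-like, neutrophil-like and T-cell-like cells, not always for every member, and in part for endothelial-like cells. Those of the other classes, where some members were also past 2-fold, are not described. List genes were named mostly for large ratios or for passing in edgeR. The members and lists were chosen with earlier results of these data known. Each script with a test across genes was tested on simulated data first. There it found few of the 2-fold changes in neutrophil-like cells and most of the 4-fold changes in the other classes. In macrophage-like and monocyte-like cells, false calls made up more of its calls than the adjusted p threshold allows for. The simulated pools had no day effect. Alternatives for levels and ratios covered the cell limits, doublets, class naming and each sublibrary left out, and for ratios also the centring. The edgeR test was rerun as DESeq2, with no filter, with no day term, without called doublets and with each day left out. It was not rerun with other cell limits or class naming, so its p-values were not checked against the ribosomal limit.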

Additional observations from a re-analysis of the deposited data

Results flagged for a closer look

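In 132 sets of 8 sublibraries (a gene, class and pool with at least 400 cells and 20 counts), 8 had 1 sublibrary far from the others by Dixon's criterion, where chance would give about 1 in 20. Itgam in macrophage-like cells of the control pool was at 176 CPM in 1 sublibrary and between 136 and 146 CPM in the other 7. Itgb2 in macrophage-like cells of the vehicle pool of day 1 was at 143 CPM in 1 sublibrary and between 167 and 188 CPM in the other 7. Itgb2 in macrophage-like cells of the entospletinib pool of day 1 was at 217 CPM in 1 sublibrary and between 143 and 177 CPM in the other 7. Itgax in macrophage-like cells of the entospletinib pool of day 14 was at 124 CPM in 1 sublibrary and between 70.3 and 94.9 CPM in the other 7. Itgb2 in neutrophil-like cells of the entospletinib pool of day 1 was at 497 CPM in 1 sublibrary and between 384 and 431 CPM in the other 7. Spn in T cell-like cells of the control pool was at 89.7 CPM in 1 sublibrary and between 119.6 and 142 CPM in the other 7. Selplg in T cell-like cells of the vehicle pool of day 14 was at 201 CPM in 1 sublibrary and between 136 and 166 CPM in the other 7. Spn in T cell-like cells of the vehicle pool of day 14 was at 99.4 CPM in 1 sublibrary and between 123 and 143 CPM in the other 7.

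The entospletinib over vehicle difference of Itgam in macrophage-like cells pointed different ways by day: 0.62 at day 1, -0.59 at day 7 and -0.86 at day 14 (log2, relative to all genes), with every sublibrary on the side of its pool. Selplg in monocyte-like cells was at 0.35 at day 1 and -0.67 at day 14 in the same way. With 1 pool per condition and day, the differences between days were not tested.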

How the results depend on the processing

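The treatment has 1 pool per day, so every p rests on 3 days, and counting intervals and sublibrary spread do not cover differences between mice. No paired analysis was possible because the columns carry no replicate numbers, and the day term is the only block. Neutrophil-like values of the control (65 cells) and of entospletinib at day 14 (41 cells) are limited by depth. The causes of the changes below were not tested.

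Genes passing in edgeR in macrophage-like cells were 408, and were 992 with no filter, 111 without called doublets, 0 with no day term and 23 to 569 with a day left out (23 without day 14). In monocyte-like cells they were 0, and were 128 in DESeq2, 504 with no filter, 6 without doublets and 0 to 148 with a day left out (148 without day 7). In neutrophil-like cells they were 38, and were 14 in DESeq2, 0 with no day term and 13 to 56 with a day left out (13 without day 1, 14 without day 14). In T-cell-like cells they were 56, and were 19 in DESeq2, 217 with no filter, 0 with no day term, 2 without doublets and 17 to 212 with a day left out (212 without day 1, 17 without day 7, 87 without day 14).

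Members past 2-fold over the days between entospletinib and vehicle in macrophage-like cells numbered 2, and were 1 without doublets, 4 with classes from each cell's own markers, 4 with TMM factors and 1 to 3 with a sublibrary left out. In T-cell-like cells they were 2, and were 1 with more than 500 genes per cell, 1 by own markers, 1 with no ribosomal limit and 1 to 2 with a sublibrary left out. Between vehicle and control the 3 in T-cell-like cells were 0 without doublets and 0 with no ribosomal limit. With the mix held, 2 became 0 by single clusters. Directions turned for Cd44 in endothelial-like cells with entospletinib at days 7 and 14 (0.14 and 0.15 without doublets), and for Itgam in T-cell-like cells with vehicle at day 1 (-0.056 without doublets) and day 7 (-0.077 with no ribosomal limit) and with entospletinib at day 7 (0.27 with no ribosomal limit). No called ratio in macrophage-like, monocyte-like or neutrophil-like cells turned its direction under any alternative run.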
